A study of Mus musculus with 12 samples.

Results

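The canonical subunits of Polycomb repressive complex 1 (PRC1) were followed in the retina of newborn wild-type mice and of mice with a Math5-Cre knockout of Ezh2. These are the ubiquitin ligases Ring1 and Rnf2, the PCGF proteins Bmi1 and Pcgf2, the chromodomain proteins Cbx2, Cbx7 and Cbx8, and the polyhomeotic proteins Phc1 and Phc2. They were chosen by gene symbol, and all 9 were found among the 38720 genes of both deposited tables. RNA-seq was carried out at P0 on retinas of C57/BL6 mice that were either wild type (WT) or Math5-Cre; Ezh2 f/f knockouts (mKO). After papain digestion, anti-CD90 (Thy1) magnetic beads separated retinal ganglion cells (RGCs) from the remaining cells (non-RGCs), and each genotype and cell fraction had 3 libraries, 12 in all. Math5-Cre is a knock-in allele that acts in only a part of the RGCs and was carried by mKO mice alone, so an effect of that allele cannot be told apart from the loss of Ezh2. By the paper, few non-RGC retinal cells derive from Math5-positive progenitors. For non-RGCs, mKO therefore names the mouse, and most of those cells are not taken to lack Ezh2. The bead fractions hold a mixture of cells, and in such samples fewer cells of a type and less RNA per cell cannot be told apart.

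Polycomb proteins keep developmental genes silent. PRC2, with Ezh2 or Ezh1 as its methyltransferase, places H3K27me3, and the CBX subunits of canonical PRC1 bind that mark through their chromodomain. Ring1 and Rnf2 (Ring1b) then add ubiquitin to histone H2A, each paired with a PCGF protein, while the PHC proteins self-associate and help to compact chromatin. In the retina, as elsewhere in the nervous system, Polycomb repression is known for timing the exit of progenitors from proliferation and for holding genes of other lineages off.

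Ring1 and Rnf2 are paralogues, as are Pcgf2 and Bmi1, and the genes of each pair differ in base composition, the property that fold changes across all genes followed in these libraries. The difference is shown in 90-base coding stretches of the ligase pair and of the PCGF pair, the windows of 30 codons with the most identical residues (GENCODE M21 transcripts, GRCm38, the build named mm10). Capitals mark a G or C at the third position of a codon. The Ring1 stretch lies within 1 exon at chr17:34023334-34023423 and the Rnf2 stretch within 1 exon at chr1:151476913-151477002, both on the minus strand.
Ring1: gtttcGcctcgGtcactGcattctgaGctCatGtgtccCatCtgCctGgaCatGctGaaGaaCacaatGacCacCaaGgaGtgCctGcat
Rnf2: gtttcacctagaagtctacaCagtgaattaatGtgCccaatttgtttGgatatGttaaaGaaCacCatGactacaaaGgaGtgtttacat
The 30 codons of Ring1 and Rnf2 encode 30 identical residues, yet 27 of the 90 bases differ, and the third position is G or C in 22 codons of Ring1 and in 11 of Rnf2. For the PCGF pair the first 30 codons are shown, at chr11:97693438-97693527 on the minus strand for Pcgf2 and chr2:18681812-18681901 on the plus strand for Bmi1.
Pcgf2: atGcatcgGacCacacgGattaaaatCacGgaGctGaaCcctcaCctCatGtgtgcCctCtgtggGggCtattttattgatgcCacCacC
Bmi1: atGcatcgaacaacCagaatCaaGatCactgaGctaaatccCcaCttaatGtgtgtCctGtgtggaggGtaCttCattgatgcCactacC
These encode 29 identical residues, with 20 of 90 bases different and a G or C at the third position in 19 codons of Pcgf2 and 16 of Bmi1. Over the whole coding sequence the third position was G or C in 67.6% of codons in Ring1 against 47.8% in Rnf2, and in 67.9% in Pcgf2 against 44.3% in Bmi1. Over all exons, Rnf2 (40.0% GC) and Bmi1 (42.1%) lay below the median of 49.5% of the genes tested in RGCs. Phc1 (52.2%), Cbx8 (54.8%), Pcgf2 (55.3%), Cbx7 (56.4%), Ring1 (57.8%), Cbx2 (58.1%) and Phc2 (59.8%) lay above it.

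The libraries held 7139633 to 13014004 reads on genes. The deposited tables give the mean of the 3 libraries of a group, from whose digits the reads of each library were recovered. Libraries are lettered A to C from the deepest to the shallowest in their group, and the letters pair nothing across groups. Values are reads divided by the size factor the authors used, and a member is called where limma gives a Benjamini-Hochberg adjusted p-value under 0.05 over all genes tested in that fraction. Ezh2 came to 1190, 1206 and 1678 normalised reads in WT RGCs and to 1354, 1476 and 1443 in mKO RGCs (adjusted p = 0.637). A count over the whole gene includes exons outside the floxed stretch, so it does not check the deletion, and genotypes are those of the labels. WT RGC library C stood apart: 10 progenitor markers summed to 1874 CPM (reads scaled to a fixed total of reads on genes) there against 1125 and 1181 in the other 2, and 10 photoreceptor markers to 715 against 467 and 480. In RGC libraries, 12 RGC markers summed to 2619 to 2766 CPM in WT and 2059 to 2130 in mKO. Of the progenitor markers, 4 of 10 were called lower in mKO RGCs and 0 of 10 in non-RGCs, and of the photoreceptor markers 4 of 10 in each. Of 8 amacrine and horizontal markers, 4 were called lower in RGCs and 3 in non-RGCs. Of the RGC markers, 10 of 12 were called lower in mKO RGCs and 8 of 12 higher in mKO non-RGCs. Over all genes, 21.2% were called lower and 16.3% higher in RGCs, and 6.43% and 4.18% in non-RGCs. With the GC trend of fold changes removed, 1 of 10 progenitor markers was lower in RGCs and 0 of 10 in non-RGCs. Photoreceptor markers lower were 3 and 2 of 10, and amacrine and horizontal markers 3 and 1 of 8. RGC markers were 10 of 12 lower in RGCs and 5 of 12 higher in non-RGCs. Over all genes that step left 10.9% lower and 4.15% higher in RGCs, and 1.04% and 0.971% in non-RGCs. With a trend of reads per base removed as well, 3 of 12 RGC markers were lower in RGCs. Of 8 microglia markers 0 were called. Of 6 erythroid markers, 5 passed the filter and were called higher in both fractions. The part of these cells in the values of the members was not tested. The 12 RGC markers summed to more in the mKO non-RGC libraries, 608 to 814 CPM against 513 to 539 in WT, with the capture antigen Thy1 at 6.78, 8.07 and 9.24 CPM against 0.41, 0.17 and 0.81.

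In RGCs, Ring1, Pcgf2, Phc1 and Phc2 fell in mKO, by between 0.27 and 0.59 on the log2 scale, and none of the 9 members rose. That is 4 of 9 members called lower, where 21.2% of the 16085 genes tested were called lower, and 0 of 9 called higher, where 16.3% were. The 3 mKO values were all lower than the 3 WT values for 5 of the 9 members, against 28.2% of all genes tested, and all higher for 0 of 9, against 24.8%. In CPM they were all lower for Ring1, Pcgf2 and Phc2 alone, and all higher for Rnf2 and Bmi1. The share of all genes so separated in CPM was not counted. Scaled to total reads in place of the size factors, where 3846 genes were higher and 2240 lower against 2622 and 3405, Pcgf2 and Phc2 were called lower and Rnf2 and Bmi1 higher. The median log2 fold change of the members was -0.34, beside -0.0024 over all genes tested. These calls did not outlast a change in how the libraries were made comparable: fold changes across all genes followed exon GC content, and once that trend was removed from each library 0 of 9 members were called by limma (2 at an unadjusted p-value under 0.05, Rnf2 and Bmi1, both lower), against 10.9% of genes lower and 4.15% higher. After that step the members' median was -0.075, and the direction turned for Rnf2, Bmi1, Cbx2 and Cbx8.

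**Figure D1:**
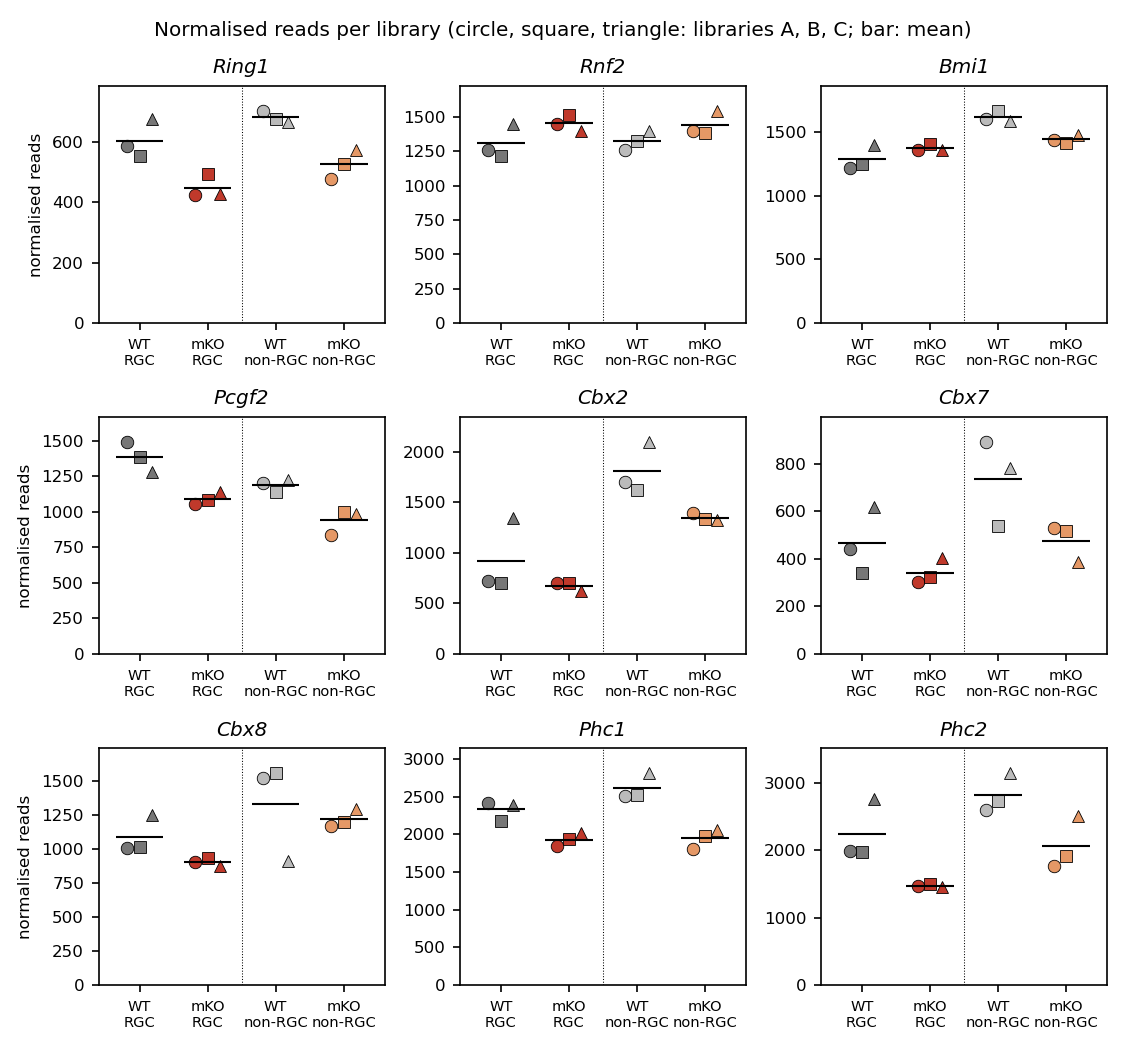
Reads divided by size factor (vertical axes, from 0) for the 9 members in each library, grouped by genotype and fraction; symbols mark libraries A, B and C, which pair nothing between groups, and bars are means of 3. The mKO RGC libraries lie below all WT RGC libraries for 5 members, and WT RGC library C is the highest of its group for 7 of the 9, all but Pcgf2 and Phc1; RGC and non-RGC values were scaled separately.

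Of the ligase pair, Ring1 fell in mKO RGCs and Rnf2 was not called. Ring1 had 586, 553 and 677 normalised reads in WT RGCs and 423, 493 and 427 in mKO RGCs. The groups did not overlap, and the mean went from 605 ± 64.3 to 448 ± 39.4 (SD, n = 3 each), a log2 fold change of -0.43 ± 0.10 (SE; limma adjusted p = 0.0167). Rnf2 had 1261, 1216 and 1445 in WT RGCs and 1449, 1514 and 1397 in mKO RGCs. There the groups overlapped through WT library C alone, and the log2 fold change of 0.16 (95% interval -0.027 to 0.34) was not called (limma adjusted p = 0.155). Without library C of WT, Rnf2 was called higher, at 0.23 (limma adjusted p = 0.00572), and Ring1 was called lower at -0.35. That fit called 3730 of 16125 genes higher and 4453 lower, more than the 2622 and 3405 with all libraries. Ring1 missed the threshold without mKO library A or C, at -0.39 and -0.40 (limma adjusted p = 0.0688 and 0.0683). The ratio of Ring1 to Rnf2 reads within a library, which no scaling of whole libraries changes, was 0.465, 0.454 and 0.468 in WT RGCs and 0.292, 0.326 and 0.306 in mKO RGCs. In non-RGCs it was 0.559, 0.514 and 0.478 in WT and 0.342, 0.382 and 0.372 in mKO, again without overlap. The ratio keeps any difference that goes with the composition of each gene. At the GC content of Ring1 the trend over all genes in RGCs stood at -0.40, and at that of Rnf2 at 0.43. With the trend removed Ring1 came to -0.027 and Rnf2 to -0.27 (limma adjusted p = 0.878 and 0.0583), so that the order of the pair turned. Of the exon bases of Rnf2, 3.83% are shared with Trmt1l on the other strand, and the library kit did not mark strand.

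Of the PCGF pair, one of which sits beside the ligase in each canonical complex, Pcgf2 fell and Bmi1 was not called. Pcgf2 (Mel18) had 1487, 1385 and 1278 normalised reads in WT RGCs and 1055, 1079 and 1140 in mKO RGCs. All 3 mKO libraries were below WT, and the log2 fold change of -0.34 ± 0.07 (SE) was called (limma adjusted p = 0.00987); it was called in 6 of 6 fits that left out 1 library. Bmi1, known for repressing Cdkn2a in stem cells, had 1217, 1248 and 1400 in WT RGCs and 1358, 1404 and 1363 in mKO RGCs. The groups overlapped and the log2 fold change was 0.096 (95% interval -0.062 to 0.25; limma adjusted p = 0.295), but without WT library C it was called higher at 0.16 (limma adjusted p = 0.0153). In that fit 3730 of 16125 genes were called higher. Pcgf2 reads per Bmi1 read came to 1.22, 1.11 and 0.912 in WT RGCs and to 0.777, 0.768 and 0.837 in mKO RGCs, without overlap. In non-RGCs it was 0.748, 0.683 and 0.773 in WT and 0.578, 0.706 and 0.667 in mKO, where the genotypes overlapped. Removal of the GC trend put Pcgf2 at -0.046 and Bmi1 at -0.23 (limma adjusted p = 0.727 and 0.0626).

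Of the CBX members, which read H3K27me3, none was called in RGCs. Cbx2 had 724, 703 and 1341 normalised reads in WT RGCs and 706, 700 and 627 in mKO RGCs. The WT mean of 923 ± 362 (SD) rests on library C, which also held the most progenitor and photoreceptor markers. The log2 fold change was -0.38 (95% interval -0.94 to 0.18; limma adjusted p = 0.247), and -0.077 without library C. Cbx7 had 442, 341 and 616 in WT and 301, 324 and 402 in mKO, overlapping, with a log2 fold change of -0.41 (95% interval -0.93 to 0.10; limma adjusted p = 0.177) that became -0.19 without WT library C and was called, at -0.62, without WT library B (limma adjusted p = 0.0462). Cbx8 had 1007, 1012 and 1246 in WT and 901, 934 and 874 in mKO. Its groups did not overlap, but the log2 fold change of -0.26 missed the threshold (limma adjusted p = 0.0628). Without WT library C it was smaller, at -0.16, and called (limma adjusted p = 0.0239), in a fit that called 4453 of 16125 genes lower. Cbx7 shares 1.54% of its exon bases with Apobec3 on the other strand.

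The polyhomeotic members Phc1 and Phc2 were both called lower. Phc1 had 2417, 2183 and 2390 normalised reads in WT RGCs and 1845, 1932 and 2018 in mKO RGCs, a log2 fold change of -0.27 ± 0.06 (SE; limma adjusted p = 0.0147). Phc2 had 1992, 1978 and 2761 in WT and 1464, 1494 and 1453 in mKO. No mKO library reached a WT library for either gene, and at -0.59 ± 0.13 (SE; limma adjusted p = 0.0110) Phc2 had the largest fold change of the 9. Phc1 missed the threshold without WT library A, mKO library A or mKO library B (limma adjusted p = 0.0518, 0.0638 and 0.0560). Leaving out WT library C gave -0.43 for Phc2 (limma adjusted p = 0.000115), in a fit that called 4453 of 16125 genes lower. By the rule of an unadjusted p-value under 0.05 with at least 1.5-fold, Phc2 was the 1 member lower in RGCs, where 6.22% of genes were. With the GC trend removed, Phc1 was at -0.12 and Phc2 at -0.094 (limma adjusted p = 0.224 and 0.655).

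**Figure D2:**
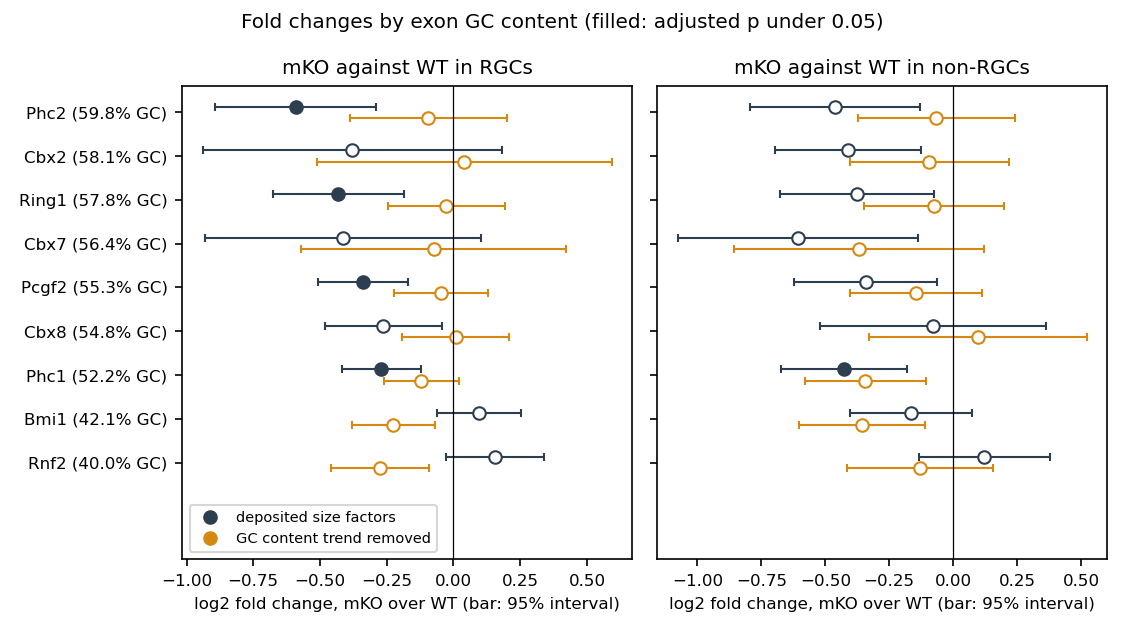
Log2 fold change of mKO over WT with its 95% interval (horizontal axes) for the 9 members, ordered by exon GC content from Rnf2 at the bottom to Phc2 at the top; dark symbols use the deposited size factors, orange symbols follow removal of the GC content trend, and filled symbols have an adjusted p-value under 0.05. In RGCs the order runs from 0.16 in Rnf2 to -0.59 in Phc2 with the size factors; with the trend removed no symbol is filled and Rnf2, Bmi1, Cbx2 and Cbx8 change sign.

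The members' place on the GC trend of all genes is therefore given for each. In RGCs, 6 members (Ring1, Pcgf2, Cbx2, Cbx7, Cbx8 and Phc2) came within 0.10 of the trend on the log2 scale. Rnf2, Bmi1 and Phc1 lay below it, by 0.27, 0.23 and 0.12. The trend was fitted to the genes tested, the members included. The share of all genes within 0.10 of it was not counted, so 6 of 9 does not set the members apart. That count of 6 rests on single libraries: over the fits that left out 1 library it was 3 to 6, and Ring1 and Cbx8 were the members within 0.10 in all of them. Without WT library B, Cbx2 was at -0.11, Cbx7 at -0.26 and Phc2 at -0.16, and 3 members remained that near. Without WT library C there were also 3, with Pcgf2 at -0.11, Cbx2 at 0.33 and Cbx7 at 0.14. When WT library C was also left out, with the trend removed from the other 5 libraries, Rnf2 (-0.21) and Bmi1 (-0.17) were called lower and Cbx2 (0.33) higher (limma adjusted p = 0.0233, 0.0174 and 0.00812). That fit called 3118 of 15912 genes lower and 1882 higher, so these calls do not set the members apart. No member was called with the trend removed when any 1 of the other 5 RGC libraries was left out instead. Removal of the trend presumes that a relation between GC content and fold change across all genes is not itself a response to the knockout, which was not tested.

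**Figure D3:**
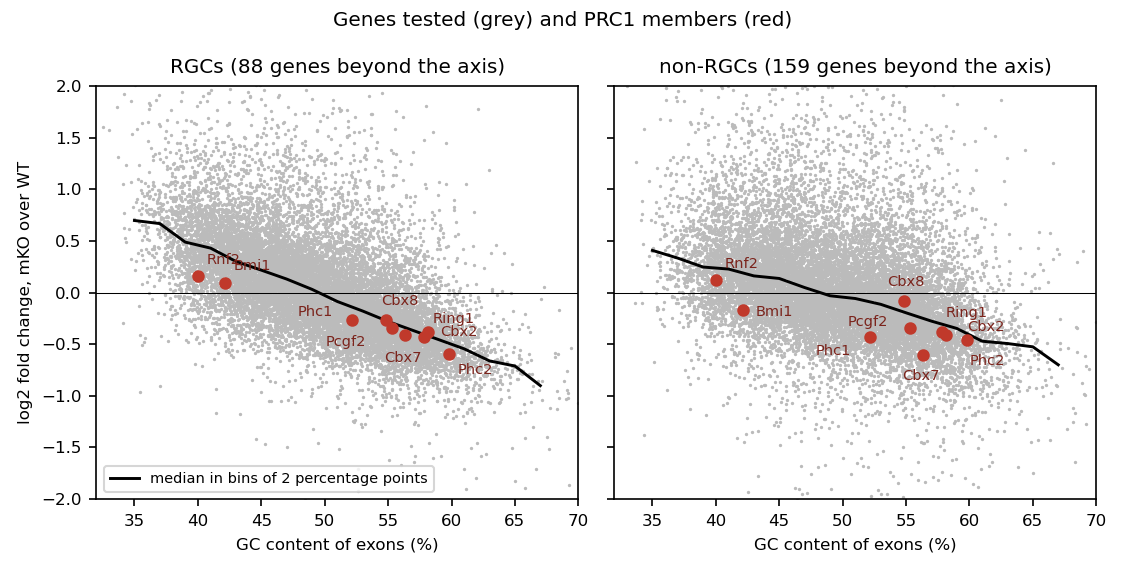
Log2 fold change of mKO over WT (vertical axes, size factors of the authors) against exon GC content in percent for every gene tested (grey), with the median in bins of 2 percentage points (line) and the 9 members (red). In both fractions the median falls from AT-rich to GC-rich genes. In RGCs 6 members lie within 0.10 of the trend (3 without WT library B or without WT library C), and Rnf2, Bmi1 and Phc1 below it. The share of all genes that near the trend was not counted.

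In non-RGCs, which at this age include progenitors and photoreceptor precursors, Phc1 fell and no other member was called. That is 1 of 9 lower, where 6.43% of 15326 genes were called lower, and 0 of 9 higher, where 4.18% were. The 3 mKO values were all lower than the 3 WT values for 7 of 9 members, against 19.2% of all genes tested, and all higher for 0 of 9, against 17.5%. In CPM they were all lower for Ring1, Pcgf2, Cbx2 and Phc1 alone, and all higher for Rnf2. The share of all genes so separated in CPM was not counted. The median log2 fold change of the members was -0.38, beside -0.026 over all genes tested. Phc1 had 2508, 2526 and 2809 normalised reads in WT and 1806, 1978 and 2053 in mKO, a log2 fold change of -0.43 ± 0.11 (SE; limma adjusted p = 0.0393). The call of Phc1 held in 1 of the 6 fits that left out 1 library, that without mKO library C, and with the GC trend removed the value was -0.34 (limma adjusted p = 0.0994). A fit that shared 1 estimate of the spread over all 12 libraries called 4 members lower, Ring1, Pcgf2, Phc1 and Phc2. That fit called more genes in all, 2134 of 15326 lower and 1533 higher. Scaled to total reads, 1329 genes were higher and 447 lower against 641 and 985, and no member was called. After removal of the trend 0 of 9 members were called by limma (Bmi1 and Phc1 at an unadjusted p-value under 0.05), where 1.04% of genes were lower and 0.971% higher.

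The other 8 members were not called in non-RGCs, although in normalised reads the genotypes did not overlap for 6 of them. Ring1 had 702, 678 and 667 in WT and 478, 529 and 573 in mKO (log2 fold change -0.38, limma adjusted p = 0.0968). Phc2 had 2599, 2732 and 3143 in WT and 1773, 1910 and 2514 in mKO (-0.46, limma adjusted p = 0.0732). Cbx2 had 1700, 1626 and 2093 in WT and 1392, 1330 and 1325 in mKO (-0.41, limma adjusted p = 0.0670). Pcgf2 had 1201, 1135 and 1225 in WT and 833, 996 and 986 in mKO, a log2 fold change of -0.34 (95% interval -0.62 to -0.063; limma adjusted p = 0.104), the same as in RGCs. Cbx7 had 890, 537 and 781 against 529, 516 and 386, a log2 fold change of -0.61 (limma adjusted p = 0.0897). At an unadjusted p-value under 0.05 with at least 1.5-fold, Cbx7 was the 1 member lower, where 6.79% of genes were. Rnf2 overlapped between genotypes, with 1255, 1321 and 1395 against 1396, 1385 and 1539 (0.12, limma adjusted p = 0.506). Bmi1 had 1605, 1662 and 1586 in WT and 1440, 1412 and 1477 in mKO (-0.16, limma adjusted p = 0.323); scaled to total reads it was at 0.0065, and with the GC trend removed at -0.36 (unadjusted p = 0.0093, limma adjusted p = 0.0983). The same removal took Ring1 to -0.075, Phc2 to -0.065, Cbx2 to -0.094, Pcgf2 to -0.15 and Cbx7 to -0.37, each a shift of over 1.5 times, and turned Rnf2 to -0.13. Cbx8 is not settled by these libraries, since WT library C had 907 against 1518 and 1553 in the other 2, and mKO had 1171, 1197 and 1294. Its log2 fold change of -0.080 (95% interval -0.52 to 0.36) became 0.092 when scaled to total reads and 0.095 with the GC trend removed.

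The effect of the genotype was then compared between fractions in 1 fit over the 12 libraries. No member differed at an adjusted p-value under 0.05, in a comparison that called 0% of 16517 genes higher and 0.0969% lower in RGCs relative to non-RGCs, with 1099 and 497 genes at an unadjusted p-value under 0.05. Bmi1 came nearest, with a difference of 0.26 (95% interval 0.018 to 0.50, unadjusted p = 0.0369, limma adjusted p = 0.50). Removal of the GC trend left Bmi1 at 0.14 (unadjusted p = 0.257), and Phc1 then came nearest, at 0.23 (unadjusted p = 0.0684), or at 0.27 (unadjusted p = 0.0286, limma adjusted p = 0.451) with the trend against reads per exon base removed as well. For Pcgf2 the difference was 0.0031 (95% interval -0.29 to 0.30), and for Ring1 -0.054 (95% interval -0.40 to 0.30). The intervals were wider for Cbx2 (-0.57 to 0.63), Cbx7 (-0.51 to 0.89), Cbx8 (-0.70 to 0.34) and Phc2 (-0.57 to 0.32). For none of these 6 members does the interval show that the fractions responded alike.

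Levels between genes were compared as RPKM, the CPM per kilobase of exon. By the union of exons Phc1 was the most abundant member in all 4 groups, with 35.2 ± 2.28 RPKM in WT RGCs and 44.0 ± 1.55 in WT non-RGCs (SD, n = 3). Cbx7 was the lowest in all 4, with 5.76 ± 1.78 in WT RGCs and 10.1 ± 2.52 in WT non-RGCs, and Ring1 was second lowest, at 14.9 ± 1.76 and 18.8 ± 0.981. Rnf2 stood above Ring1 in every library, at 25.3 ± 2.63 RPKM in WT RGCs and 28.6 ± 0.789 in WT non-RGCs. Between these ends the order in WT RGCs was Pcgf2 (31.4), Bmi1 (25.9), Phc2 (25.4), Rnf2 (25.3), Cbx8 (23.7) and Cbx2 (17.4). From Bmi1 down to Cbx2, each gene overlapped its neighbour in the range of the libraries, as did Cbx2 and Ring1 and, at the top, Phc1 and Pcgf2. Pcgf2 and Bmi1 did not overlap, nor did Ring1 and Cbx7. In mKO RGCs the order was Phc1 (31.7), Rnf2 (30.7), Bmi1 (30.1), Pcgf2 (26.9), Cbx8 (21.4), Phc2 (18.1), Cbx2 (13.9), Ring1 (12.02) and Cbx7 (4.58). There the libraries of Phc1 and Rnf2 overlapped, as did those of Rnf2 and Bmi1 and of Cbx2 and Ring1. Cbx7 remained lowest and Ring1 second lowest when the longest transcript replaced the union of exons, but Phc2 then came first in 3 of the 4 groups. It stood at 45.5 RPKM against 44.5 for Pcgf2 and 44.2 for Phc1 in WT RGCs, at 63.8 against 55.4 for Phc1 in WT non-RGCs and at 52.5 against 46.4 in mKO non-RGCs. In mKO RGCs Phc1 stayed first at 39.9, close to Rnf2 at 39.5, whose libraries overlapped with it, and Phc2 was at 32.4.

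**Figure D4:**
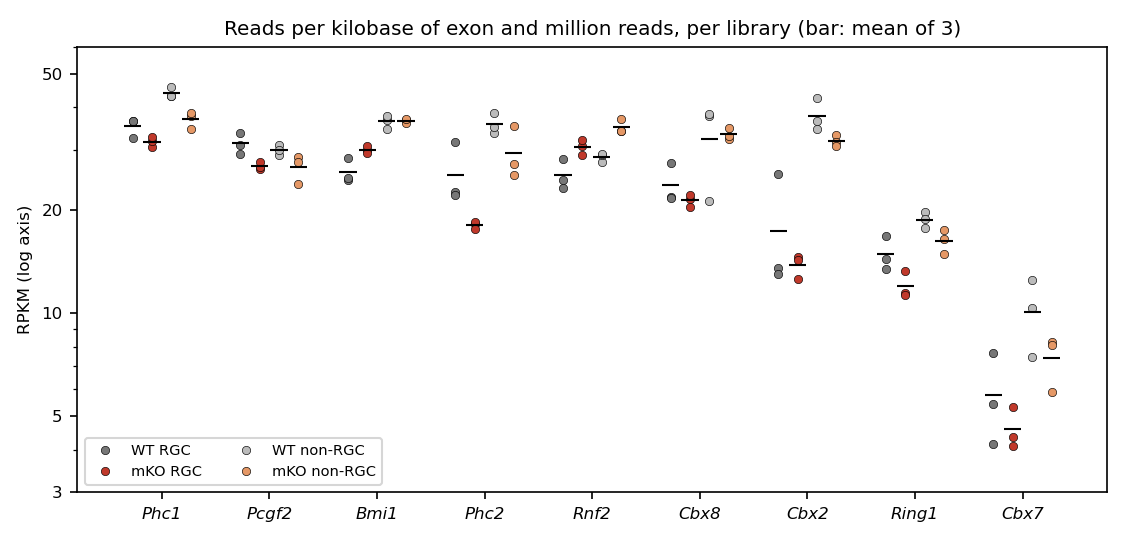
RPKM of the 9 members (vertical axis, logarithmic) in each library, ordered by their mean in WT RGCs; points are libraries, bars are means of 3 and colours are the groups. With the union of exons as length, Phc1 is highest by its mean and Cbx7 lowest in each of the 4 groups, and the grey points of Cbx2 lie lower in RGCs than in non-RGCs.

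Of the 9 members, Cbx2 differed most between the cell fractions. It had 57.9, 55.5 and 108 CPM in WT RGCs and 155, 147 and 181 in WT non-RGCs, a ratio of 2.18 between the means, and 62.2, 61.1 and 53.7 against 141, 135 and 131 in mKO, a ratio of 2.3. The lowest non-RGC library was above the highest RGC library in both genotypes. The fractions were normalised in separate tables, so these are CPM levels with no test. For the other 8 members the non-RGC to RGC ratio ran from 0.959 for Pcgf2 to 1.76 for Cbx7 in WT, and from 0.993 for Pcgf2 to 1.62 for Phc2 in mKO. Markers of several other cell types followed the same split: progenitor markers had 1125 to 1874 CPM in RGC and 2007 to 2766 CPM in non-RGC libraries, photoreceptor markers 423 to 715 and 902 to 1259, and 8 amacrine and horizontal markers 442 to 556 and 837 to 1142. The 8 microglia markers went the other way, with means of 255 CPM in WT RGCs and 15.4 in WT non-RGCs, and of 196 and 15.5 in mKO. Within WT RGCs, library C had the highest sum of each of these lists and the highest Cbx2. Without it Cbx2 lay between 53.7 and 62.2 CPM in the other 5 RGC libraries of both genotypes.

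**Figure D5:**
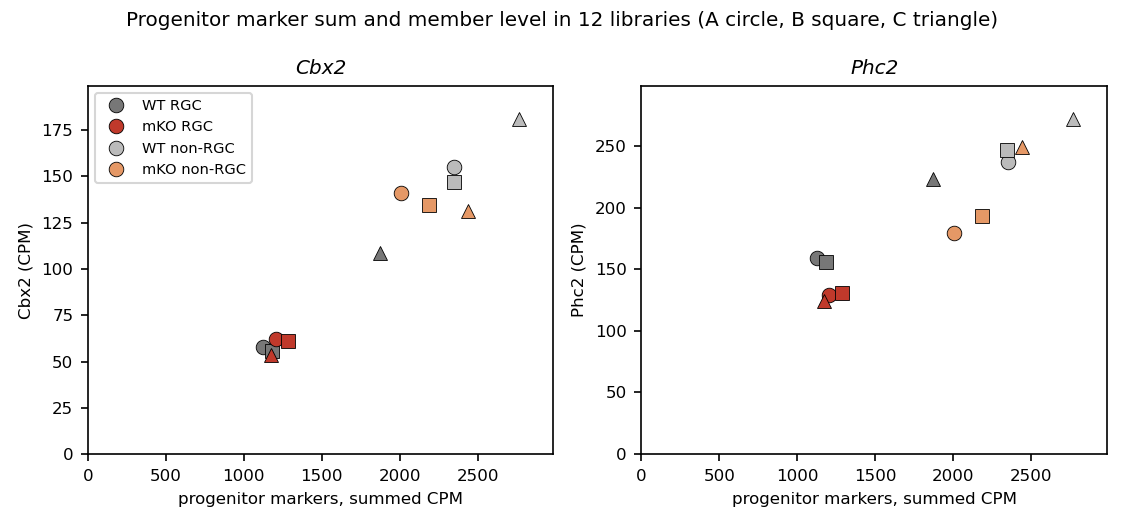
CPM of Cbx2 and of Phc2 (vertical axes) against the summed CPM of 10 progenitor markers (horizontal axes) in the 12 libraries. Progenitor sums were lower in every RGC library (1125 to 1874) than in any non-RGC library (2007 to 2766). WT RGC library C lay nearer to the non-RGC libraries than to the other RGC libraries. Its Phc2, at 223 CPM, was above that of mKO non-RGC libraries A and B (179 and 194). The WT RGC library C, at 1874 CPM of progenitor markers, has 108 CPM of Cbx2 while the other RGC libraries have 53.7 to 62.2.

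Other genes of the pathway were counted from lists. Of 5 further canonical PRC1 genes, Phc3 rose in RGCs (0.54, limma adjusted p = 0.0319), Cbx6 (-0.30) fell, and 3 were not called. That is 1 of 5 higher and 1 of 5 lower, where 16.3% and 21.2% of all genes were. In non-RGCs none was called, where 4.18% of all genes were higher and 6.43% lower. Of the polyhomeotic genes, Phc3 was thus higher in mKO RGCs and Phc1 and Phc2 lower. With the GC trend removed, 0 of the 5 were called in either fraction by limma, and Scmh1, lower, was the 1 gene at an unadjusted p-value under 0.05 in each. Of 24 genes of variant PRC1, which carries RYBP or YAF2 in place of a CBX protein, 10 fell and 2 rose in RGCs (21.2% and 16.3% of all genes), and 4 fell and 0 rose in non-RGCs (6.43% and 4.18%). The median log2 fold change of this list was -0.19 in RGCs and -0.18 in non-RGCs. Kdm2b, which brings variant PRC1 to CpG islands, fell in both fractions (-0.39 and -0.65, limma adjusted p = 0.00216 and 0.0185), as did Fbrsl1 (-0.61 and -0.90) and Fbrs (-0.35 and -0.48). The corepressor Bcor fell in both fractions too (-0.29 and -0.86, limma adjusted p = 0.00332 and 0.0128). In RGCs the casein kinase subunits Csnk2b (-0.62) and Csnk2a2 (-0.40), Skp1a (-0.40) and Dcaf7 (-0.32) fell, while Mga (0.73) and Pcgf6 (0.30) rose. With the GC trend removed, 5 of the 24 were lower in RGCs and 0 in non-RGCs, and 0 were higher. Over all genes the shares were then 10.9% lower and 4.15% higher in RGCs, and 1.04% and 0.971% in non-RGCs. Kdm2b, Skp1a, Csnk2a2 and Csnk2b were among those 5, together with Yaf2.

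Of 7 genes of the H2A deubiquitinases, which take off the mark that Ring1 and Rnf2 add, 3 rose and 2 fell in RGCs, where 16.3% and 21.2% of all genes did. Mysm1 (0.69), Asxl2 (0.59) and Usp16 (0.40) were higher, and Usp21 (-0.47) and the catalytic subunit Bap1 (-0.38) lower; none was called in non-RGCs or after removal of the GC trend. Of 11 PRC2 genes, Mtf2 (0.68) rose and Phf1 (-0.62), Rbbp4 (-0.31) and Rbbp7 fell in RGCs, that is 1 of 11 higher and 3 of 11 lower beside the same shares, and Mtf2 (0.65) alone was called in non-RGCs. After the trend was removed, Rbbp4 (-0.53) and Rbbp7 (-0.50) were lower in RGCs and no PRC2 gene was called in non-RGCs. In RGCs that is 2 of 11 lower and 0 of 11 higher, where 10.9% and 4.15% of all genes were. Ezh2, the gene floxed in mKO, was not called in either fraction.

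Genes that PRC1 is known to silence gave few reads in either genotype. Of 11 such genes, 3 passed the filter in RGCs and 4 in non-RGCs, and the 11 together summed to 4.06 to 8.06 CPM in WT and 2.99 to 3.53 CPM in mKO RGCs. None rose in either fraction. Cdkn2a, the cell cycle inhibitor locus that Bmi1 represses, had 8, 12 and 20 reads in WT RGCs and 7, 4 and 7 in mKO RGCs (limma adjusted p = 0.0693). In non-RGCs it had 52, 42 and 26 in WT and 44, 49 and 27 in mKO. Pax7 was the 1 gene called, lower in both fractions, and is named after its values were seen: it had 32, 45 and 21 reads in WT RGCs against 21, 13 and 14 in mKO, and 108, 153 and 25 in WT non-RGCs against 17, 19 and 8 in mKO. Its log2 fold change was -1.19 in RGCs and -2.30 in non-RGCs (limma adjusted p = 0.0266 and 0.0327). Once the GC trend was removed it was at -0.90 and -2.10 and not called (limma adjusted p = 0.12 and 0.0721), and with the trend of reads per base removed as well it was called again in RGCs, at -1.29 (limma adjusted p = 0.0397), and not in non-RGCs, at -2.38 (limma adjusted p = 0.0578).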

How the data were processed

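Total RNA from 12 samples (4 groups of 3, from the titles) was sequenced by the authors as poly-A selected single-end libraries. Per the labels and the study's methods, reads were aligned to mm10 with STAR 2.3.1z4 and counted per gene with featureCounts, and the file names add that primary alignments without duplicates were kept. In the deposited signal values, the authors divided counts by a size factor per library and gave the mean of the 3 libraries in each group. The tables also hold the authors' fold changes, p-values and adjusted p-values of their own test, which were not used. No value column of a sample went unused (0 columns).

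Each deposited mean carries 15 digits. Library reads were recovered by a search for the whole numbers and size factors that give the mean, and 100% of genes with reads in each of the 4 groups had exactly 1 combination. On simulated means 6728 of 6728 (RGC table) and 6527 of 6527 genes (non-RGC table) came back exactly. The libraries are separate RNA extractions by the methods; whether they came from separate litters is not given in the sources used here, so p-values measure the spread between these samples.

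limma 3.58.1 (R 4.3.3) with a mean-variance trend was fitted to log2(reads / size factor + 1), keeping genes whose mean reached 10 in 1 or both groups, within each table, two-sided, with Benjamini-Hochberg adjustment. A fold change on this scale understates that of genes with few reads. The GC alternative subtracted a lowess trend (span 0.3) from each library, fitted to all genes kept by the filter that had a GC content. Exon lengths and GC content came from GENCODE M21, matched for 96.4% of symbols and for 98.7% of genes tested in RGCs. Scripts used Python 3.11.15 and were tested on simulated data.

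The members and lists were chosen with earlier results of these data known. Named genes are the 9 members, Ezh2 and, from each pathway list, up to 10 genes with an adjusted p-value under 0.05 in either fraction and a log2 fold change of at least 0.3; Rbbp7, Yaf2 and Scmh1 were added after their values were seen to complete short counts. A gene of the list of further canonical PRC1 genes is not reported here. An exact permutation test of 3 against 3 cannot go below 0.1, so none was run.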

Additional observations from a re-analysis of the deposited data

How the results depend on the processing

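No paired analysis was possible because the recovered libraries carry no replicate number. In RGCs the calls were 2622 higher and 3405 lower; scaled to total reads, which moved the median log2 fold change by 0.12, they were 3846 and 2240, and scaled to the upper quartile 3369 and 2696. Members called lower and higher in RGCs, 4 and 0, became 2 (Pcgf2, Phc2) and 2 (Rnf2, Bmi1) with total reads and 4 and 1 (Rnf2) with the upper quartile. In non-RGCs total reads moved the median by 0.17 and the calls from 641 higher and 985 lower to 1329 and 447 (upper quartile 991 and 533), and 0 members were lower under both; Bmi1 was then at 0.0065 with total reads and Cbx8 at 0.092 and 0.047. With the GC trend removed, genes called fell from 6027 to 2393 in RGCs and from 1626 to 304 in non-RGCs, and with the trend of reads per base removed as well to 1252 and 227, with 0 members lower each time. The former turned Rnf2 (-0.27), Bmi1 (-0.23), Cbx2 (0.039) and Cbx8 (0.0076) in RGCs and Rnf2 (-0.13) and Cbx8 (0.095) in non-RGCs. The latter gave in RGCs Ring1 0.0015, Rnf2 -0.12, Bmi1 -0.075, Pcgf2 0.11, Cbx2 0.085, Cbx8 0.11, Phc1 0.069 and Phc2 0.0041, and in non-RGCs Rnf2 -0.0096, Cbx2 0.036, Cbx8 0.22 and Phc2 0.057, all turned. With 12 libraries in 1 fit 3918 genes were called in RGCs and 3667 in non-RGCs, with 4 members lower in the latter (Ring1, Pcgf2, Phc1, Phc2). An unadjusted p-value under 0.05 with 1.5-fold gave 2615 genes and 1 member lower in RGCs. In non-RGCs, no filter on low values and no mean-variance trend (913 genes) each left 0 members lower. The difference between fractions called 16 genes, and 26 with total reads, 9 without the mean-variance trend and 6 with both trends removed. Leaving out 1 library gave 3770 to 8183 genes, 2 to 5 members lower and 0 to 2 higher in RGCs, 141 to 1614 genes and 0 to 2 members lower in non-RGCs, and 7 to 237 genes for the difference. The 8183 came without WT RGC library C, the 237 without mKO non-RGC library A and the 141 without mKO non-RGC library B. Cbx8 in non-RGCs lay between -0.33 and 0.055 in those fits. With the GC trend removed as well, chosen after the data were seen, RGCs gave 0 to 2 members lower and 0 to 1 higher, both extremes without WT RGC library C. Of 15912 genes, that fit called 3118 lower and 1882 higher. Levels in WT RGCs by the longest transcript were 19.0 RPKM for Ring1, 32.7 for Rnf2, 28.7 for Bmi1, 44.5 for Pcgf2, 44.2 for Phc1 and 45.5 for Phc2. The causes of these shifts were not tested.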
